A study of Homo sapiens with 2 samples.

Results

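The miR-10, miR-99/100 and miR-125 families were followed in small extracellular vesicles (sEVs), the nanometre-sized vesicles that cells release into their medium, from a non-cancer and a cancer mammary cell line. The 7 members were chosen by name: hsa-miR-10a-5p and hsa-miR-10b-5p form the miR-10 family, hsa-miR-99a-5p, hsa-miR-99b-5p and hsa-miR-100-5p the miR-99/100 family, and hsa-miR-125a-5p and hsa-miR-125b-5p the miR-125 family. They are 7 of the 1315 mature miRNAs in the deposited table, and all 7 had at least 2 counts in each library. Small RNA of sEVs was sequenced from wild-type MCF-10A cells, a non-transformed mammary epithelial line, and from wild-type MDA-MB-231 cells, a triple-negative breast cancer line, and no agent or transgene is named for either. With 1 library per cell line there is no spread between replicates to set a difference against, and p-values are left out. Cells of both lines were in EV-free medium, and sEVs were spun out of it in an ultracentrifuge, while the further growth conditions are given for MDA-MB-231 cells only.

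A miRNA guides Argonaute to messenger RNAs that pair with its seed, the bases near its 5′ end, so members with the same seed can share targets. The miR-10 genes lie within the HOX clusters, which lay down the body axis, and miR-10b is known from studies of TWIST1-driven invasion of breast cancer cells. miR-99 and miR-100 are known to repress MTOR and other growth-signalling genes. miR-125 is an ancient developmental miRNA with known targets such as ERBB2, and in many animals its gene sits in a cluster with those of miR-100 and let-7.

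The mature sequences are shown because the families are defined by their seeds and because members with near-identical bodies can compete for the same reads. RefSeq (GRCh38.p14) gave the sequence of 6 of the 7 members, and that of hsa-miR-10b-5p is not printed. Capitals mark the seed, bases 2 to 8 from the 5′ end.
hsa-miR-10a-5p: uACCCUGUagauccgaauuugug
hsa-miR-99a-5p: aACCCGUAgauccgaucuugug
hsa-miR-99b-5p: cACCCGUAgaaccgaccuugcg
hsa-miR-100-5p: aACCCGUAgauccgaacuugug
hsa-miR-125a-5p: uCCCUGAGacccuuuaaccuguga
hsa-miR-125b-5p: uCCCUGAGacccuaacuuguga

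The 3 members of the miR-99/100 family shared the seed ACCCGUA, and both miR-125 members shared CCCUGAG. No other human miRNA in the RefSeq table has the seed of miR-10a-5p or of miR-99/100. miR-10b-5p has no mature sequence in that table, so whether it shares the seed of miR-10a-5p was not compared here. The 1 other miRNA with the miR-125 seed, miR-4319, was not among the miRNAs counted here. Counted from the 5′ end, miR-99a-5p and miR-100-5p differ by the single substitution U16A (miR-99a-5p first), and miR-99a-5p and miR-99b-5p by the 4 substitutions A1C, U11A, U16C and U21C. miR-125a-5p and miR-125b-5p are identical over their first 13 bases, and then differ in body and in length (24 and 22 nt). Across families, miR-10a-5p and miR-100-5p share a run of 11 bases, guagauccgaa, at positions 7 to 17 of the first and 6 to 16 of the second. How reads that fit more than 1 of these miRNAs were assigned is not given in the sources used here, so the split between miR-99a-5p and miR-100-5p, and that between the close paralogues miR-10a-5p and miR-10b-5p, is less certain than the sum of each family.

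Positions are given on GRCh38 with GENCODE v29. MIR10A lies at chr17:48579838-48579947 on the minus strand, in an intron of HOXB3 and over an annotated exon of a HOXB4 transcript on the same strand. MIR10B lies at chr2:176150303-176150412 on the plus strand, in an intron of HOXD3. The other 6 hairpins fall into 3 clusters, each with a miR-99 or miR-100 gene, a let-7 gene and a miR-125 gene on 1 strand. MIR99B, MIRLET7E and MIR125A occupy 728 bases in intronic sequence of SPACA6 (chr19:51692612-51693339, plus strand). MIR99A, MIRLET7C and MIR125B2 span 51237 bases within introns of the long non-coding gene MIR99AHG (chr21:16539089-16590325, plus strand). MIR100, MIRLET7A2 and MIR125B1 span 52552 bases within introns of another such gene, MIR100HG (chr11:122099757-122152308, minus strand). miR-125b-5p is the product of 2 genes, MIR125B1 and MIR125B2, and its counts cannot be divided between chromosomes 11 and 21.

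Values are shares of the library total, 11529 counts for MCF-10A and 18397 for MDA-MB-231 sEVs, with 95% Wilson intervals. For a ratio of 2 shares the interval is the exact conditional binomial one. Both kinds cover counting error only, since there was 1 library per cell line. They treat reads as independent, and as amplified reads were not collapsed by molecular identifier, they may be too narrow. miR-182-5p and miR-451a together took 58.4% and 70.4% of the totals. The median log2 ratio of 109 miRNAs, those that reached 10 counts in either library, was −0.72 (ratio 0.607). TMM, median-of-ratios and totals that leave out the 10 most abundant miRNAs from each library (13 in all, none of them a member) multiplied every ratio by 1.60 to 1.66 and brought that median to between −0.05 and 0.01. The 7 epithelial miRNAs summed to 79 and 21 counts. Of these, miR-205-5p (41 and 0 counts), miR-200c-3p (19 and 3), miR-200a-3p (8 and 1) and miR-203a-3p (7 and 4) had fewer counts in MDA-MB-231 sEVs, and miR-200b-3p (3 and 9), miR-141-3p (0 and 2) and miR-429 (1 and 2) had more. The 8 blood and serum miRNAs summed to 12.5% and 20.5%, most of it miR-451a. The others were miR-486-5p (29 and 96 counts), miR-16-5p (31 and 70), miR-122-5p (10 and 17) and miR-144-3p (6 and 13). miR-142-3p had 3 counts in each, miR-223-3p 0 and 3, and miR-150-5p 0 in both. The part of either list in the members' ratios was not tested.

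All 7 members together made up 1.57% of MCF-10A sEVs (181 counts, 1.36 to 1.81%) and 1.13% of MDA-MB-231 sEVs (207 counts, 0.983 to 1.29%). The ratio of these shares was 0.717 (0.584 to 0.880) on library totals, and it turned to between 1.14 and 1.19 under the 3 other scalings, whose intervals all included 1. The 7 members as a sum thus took a smaller fraction of the MDA-MB-231 library on library totals alone. The sum lay 0.24 above the median log2 ratio of the 109 miRNAs, and that median, a ratio of 0.607, was inside the interval of the sum.

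**Figure D1:**
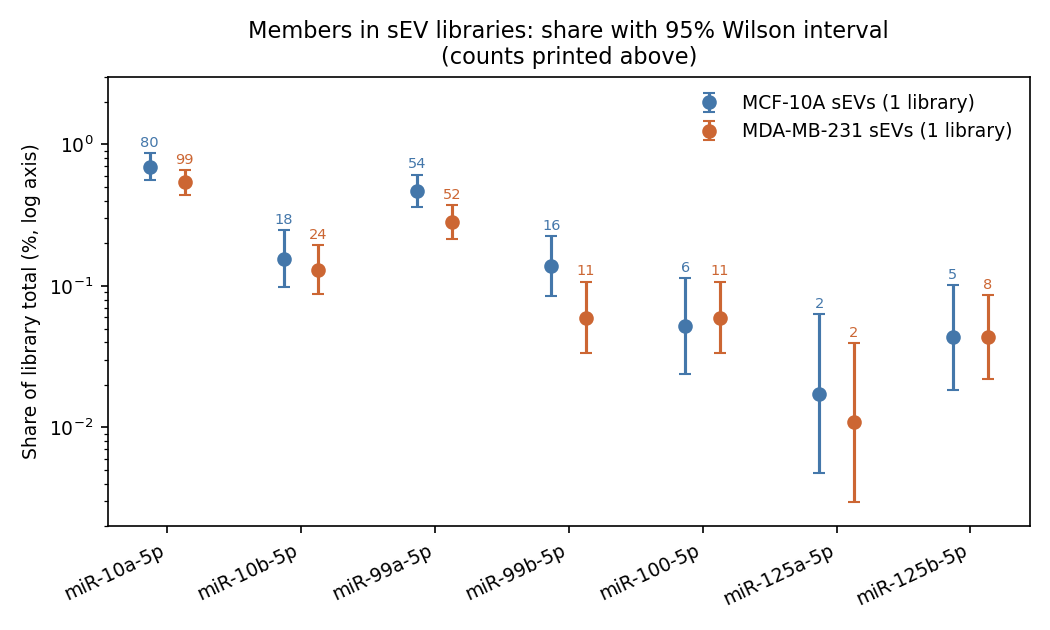
Share of the library total (%, log axis) of each member in MCF-10A and MDA-MB-231 sEVs, 1 library each, with 95% Wilson intervals and the counts printed above them. In both libraries miR-10a-5p is highest (80 and 99 counts), followed by miR-99a-5p (54 and 52), and miR-125a-5p is lowest with 2 counts.

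The miR-10 family was the most abundant of the 3. miR-10a-5p had 80 counts in MCF-10A sEVs, or 0.694% (0.558 to 0.863%), and 99 counts in MDA-MB-231 sEVs, or 0.538% (0.442 to 0.655%). It ranked 13 and 11 among all miRNAs by count. An equal share would have given 128 counts in MDA-MB-231 sEVs, and the ratio of shares was 0.776 with an interval of 0.572 to 1.05 that included 1. miR-10b-5p, the paralogue encoded in the HOXD cluster, had 18 counts (0.156%, 0.0988 to 0.247%) and 24 counts (0.13%, 0.0877 to 0.194%). Its ratio of 0.836 (0.435 to 1.63) leaves room for a difference in either direction. Pooled, the family had 98 and 123 counts, 0.850% (0.698 to 1.03%) and 0.669% (0.561 to 0.797%), with a ratio of 0.787 (0.598 to 1.04) on library totals. The point value lay above 1 under the 3 other scalings, at 1.26 to 1.31, again with intervals that included 1. No difference in miR-10 was therefore detectable at this depth in either direction.

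Of the families, only miR-99/100 had a ratio of shares whose interval excluded 1 on library totals. That interval, 0.437 to 0.852, overlapped the 0.598 to 1.04 of the miR-10 family. miR-99a-5p had 54 counts (0.468%, 0.359 to 0.611%) in the MCF-10A library and 52 counts (0.283%, 0.216 to 0.370%) in MDA-MB-231 sEVs, a ratio of 0.603 (0.404 to 0.90). The intervals of its 2 shares overlapped slightly. Under the other scalings its ratio was 0.963 to 1.00, and it lay within 0.01 of the median log2 ratio of the 109 miRNAs, so miR-99a-5p sat where the typical miRNA did.

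miR-99b-5p had 16 counts (0.139%, 0.0854 to 0.225%) and 11 counts (0.0598%, 0.0334 to 0.107%). Its ratio of 0.431 (0.181 to 0.989) was the lowest of the members with a printed fold, and was 0.688 to 0.716 under the other scalings with intervals that included 1. miR-100-5p, which differs from miR-99a-5p at 1 base, had 6 counts (0.0520%, 0.0239 to 0.114%) and 11 counts (0.0598%, 0.0334 to 0.107%). Its ratio of 1.15 (0.389 to 3.78) was compatible with a difference in either direction, so the 3 members cannot be said to move together. The family sum of 76 and 74 counts gave 0.659% (0.527 to 0.824%) and 0.402% (0.321 to 0.505%), a ratio of 0.610 (0.437 to 0.852). That value was 0.974 to 1.01 under the other scalings, so the lower share of the family was of the size of the shift in the median miRNA.

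The miR-125 family was close to the limit of detection. miR-125a-5p had 2 counts in each library, or 0.0173% (0.00476 to 0.0632%) and 0.0109% (0.00298 to 0.0396%), and no fold is given because both counts were at or under 3, with an interval for the ratio from 0.0454 to 8.65. miR-125b-5p had 5 counts (0.0434%, 0.0185 to 0.101%) and 8 counts (0.0435%, 0.0220 to 0.0858%), a ratio of 1.00 (0.289 to 3.90). Pooled, the family had 7 and 10 counts and a ratio of 0.895 (0.308 to 2.77), so a change of less than about 3-fold was not detectable on library totals. With TMM scaling the ratio was 1.48 (0.509 to 4.58), which leaves room for a larger rise. The same seed was thus represented by 0.0607% (0.0294 to 0.125%) and 0.0544% (0.0295 to 0.10%) of all miRNA counts. The 2 members have 3 genes in 3 clusters, and the counts do not show that each gene contributed.

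**Figure D2:**
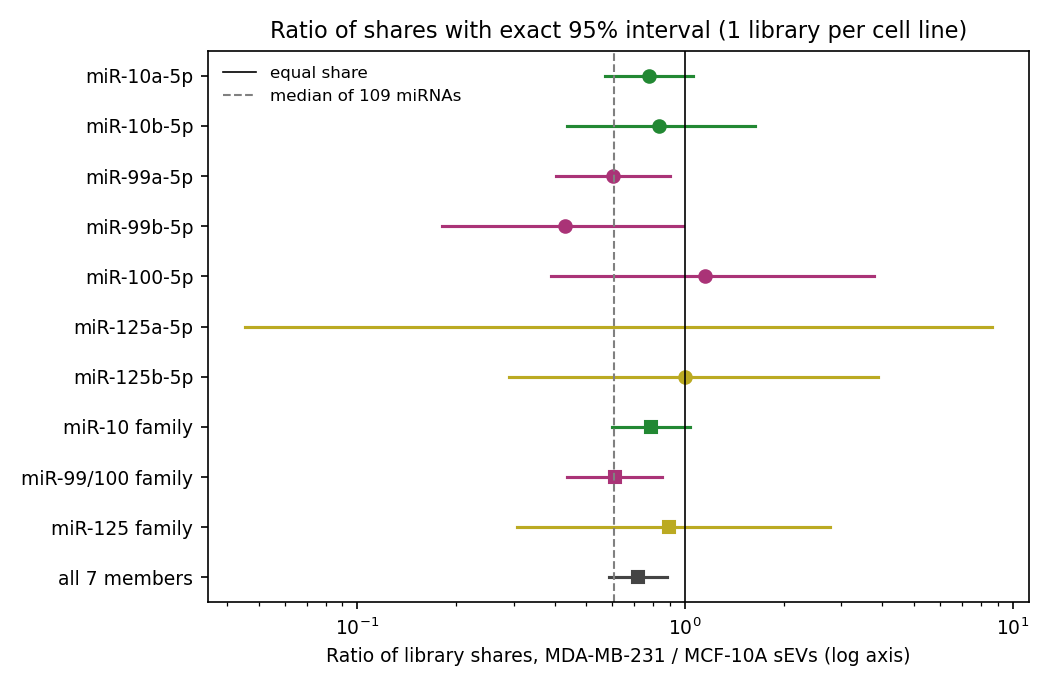
Ratio of library shares, MDA-MB-231 over MCF-10A sEVs (log axis), for the members (circles) and pooled families (squares), with exact 95% intervals, 1 library per cell line. Only the intervals of miR-99a-5p, miR-99b-5p, the miR-99/100 family and the sum of the 7 lie below 1, and none does under the 3 other scalings, while miR-125a-5p has an interval but no point because both counts are 2, and the dashed line marks the median ratio of the 109 miRNAs, 0.607.

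Within a library the members fell into an order of which only the top was resolved. miR-10a-5p exceeded miR-99a-5p by 1.48 times (1.04 to 2.13) in MCF-10A sEVs and 1.90 times (1.35 to 2.72) in MDA-MB-231 sEVs. miR-99a-5p exceeded miR-10b-5p by 3.00 times (1.73 to 5.44) and 2.17 times (1.31 to 3.68). Below these, miR-10b-5p and miR-99b-5p had 18 and 16 counts in MCF-10A sEVs and did not differ beyond counting error. In MDA-MB-231 sEVs, miR-10b-5p exceeded miR-100-5p by 2.18 times (1.03 to 4.93), and miR-99b-5p and miR-100-5p were tied at 11 counts. The ratios of neighbours further down, to miR-125b-5p and miR-125a-5p, had intervals that included 1 in both libraries. Such ratios between miRNAs count ligated and amplified reads, and a difference in how well each sequence is captured was not tested.

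The make-up of each family does not depend on how the 2 libraries are scaled, and it was compared by odds ratios with exact conditional intervals. miR-10a-5p provided 81.6% (72.8 to 88.1%) of the miR-10 counts from MCF-10A cells and 80.5% (72.6 to 86.5%) of those from MDA-MB-231 cells, an odds ratio of 0.928 (0.441 to 1.93). miR-99a-5p provided 71.1% (60.0 to 80.0%) and 70.3% (59.1 to 79.5%) of the miR-99/100 counts, an odds ratio of 0.963 (0.449 to 2.07). In both libraries 1 paralogue dominated each of these families by a like margin, although the intervals still allow about a 2-fold change of the odds.

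The minor members of the miR-99/100 family had less certain shares. miR-99b-5p provided 21.1% (13.4 to 31.5%) and 14.9% (8.51 to 24.7%), and miR-100-5p 7.89% (3.67 to 16.2%) and 14.9% (8.51 to 24.7%). Their points moved in opposite directions, but the odds ratios of 0.657 (0.253 to 1.65) and 2.03 (0.643 to 7.09) both included 1. Set against each other, miR-99b-5p to miR-100-5p went from 2.67 (16 to 6 counts) to 1.00 (11 to 11), an odds ratio of 0.384 (0.0872 to 1.54). In the miR-125 family miR-125b-5p provided 5 of 7 and 8 of 10 counts, too few to compare. The 3 families themselves kept a similar mix: miR-10 made up 54.1% (46.9 to 61.2%) and 59.4% (52.6 to 65.9%) of the members' counts, miR-99/100 42.0% (35.0 to 49.3%) and 35.7% (29.5 to 42.5%), and miR-125 3.87% (1.89 to 7.77%) and 4.83% (2.64 to 8.66%). The odds ratio of miR-99/100 against the other members was 0.769 (0.50 to 1.18). That interval included 1, so the ratio of miR-99/100 was not shown to differ from that of the other members.

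**Figure D3:**
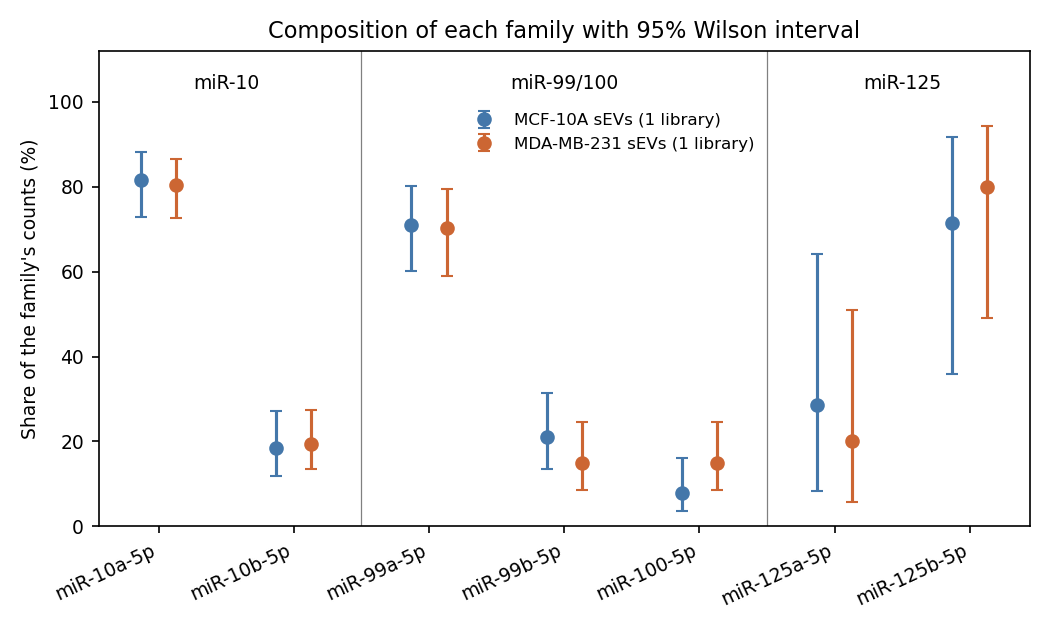
Share of its own family's counts (%) provided by each member in MCF-10A and MDA-MB-231 sEVs, 1 library each, with 95% Wilson intervals. miR-10a-5p holds 81.6% and 80.5% of its family and miR-99a-5p 71.1% and 70.3% of its family, while the intervals of the miR-125 members are wide.

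The opposite arms of the hairpins were nearly absent. Each hairpin yields a guide arm that is loaded into Argonaute and a passenger arm that is mostly degraded, and all members are 5p arms. Of the 8 opposite arms, 7 were in the table. miR-99b-3p was seen once, in MCF-10A sEVs, miR-125b-1-3p had 1 count in each, and the other 5 had 0 in both. By the rule of 3 counts of the total, a one-sided limit and not a Wilson bound, a count of 0 allows a share of up to 0.0260% of the MCF-10A library and 0.0163% of the MDA-MB-231 library. The 5p arms therefore held 98.9% (96.1 to 99.7%) of the 183 counts of both arms for MCF-10A and 99.5% (97.3 to 99.9%) of the 208 for MDA-MB-231 sEVs. The 1 count of miR-125b-1-3p in each library was the sole count of an arm that is specific to MIR125B1 or MIR125B2, and it does not settle which of the 2 genes gave miR-125b-5p.

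The miR-99/100 members were set beside the let-7 and miR-125 miRNAs of their own clusters in 6 pairs, 3 with a let-7 and 3 with a miR-125 partner. On chromosome 21, miR-99a-5p and let-7c-5p had 54 and 44 counts in the MCF-10A library and 52 and 50 in the MDA-MB-231 library, so they were near parity in both, with an odds ratio of 0.848 (0.468 to 1.53). On chromosome 19, miR-99b-5p, let-7e-5p and miR-125a-5p had 16, 6 and 2 counts and then 11, 2 and 2 counts. miR-99b-5p was the highest of the 3 in both libraries, although its interval against let-7e-5p in MCF-10A sEVs, 0.991 to 8.32, just included 1. There miR-99b-5p exceeded miR-125a-5p by 8 times (1.88 to 71.7) and 5.5 times (1.20 to 51.1), on 2 counts of miR-125a-5p per library. On chromosome 21, miR-99a-5p exceeded miR-125b-5p, which is made by 2 genes, by 10.8 times (4.35 to 34.6) and 6.5 times (3.07 to 15.8). The odds ratio of that pair was 0.604 (0.146 to 2.26). Some miRNAs of a cluster thus differed in counts, while miR-99a-5p and let-7c-5p did not differ beyond counting error.

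On chromosome 11, miR-100-5p had 6 and 11 counts beside 128 and 66 counts of let-7a-5p. The ratio of miR-100-5p to let-7a-5p went from 0.0469 (0.0169 to 0.105) to 0.167 (0.0794 to 0.318), an odds ratio of 3.53 (1.14 to 12.2). Among the 11 pairs compared within families and clusters this was the only interval that excluded 1, and the intervals were not adjusted for that number. On library totals the ratio of shares was 0.323 (0.236 to 0.438) for let-7a-5p and 1.15 (0.389 to 3.78) for miR-100-5p. The pair's odds ratio thus does not show a change of miR-100-5p itself. let-7a-5p is made by 3 genes, of which MIRLET7A2 is the sole one in this cluster, so its counts do not stand for the cluster alone. miR-100-5p and miR-125b-5p stayed at 6 to 5 and 11 to 8 counts, an odds ratio of 1.14 (0.197 to 6.48).

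**Figure D4:**
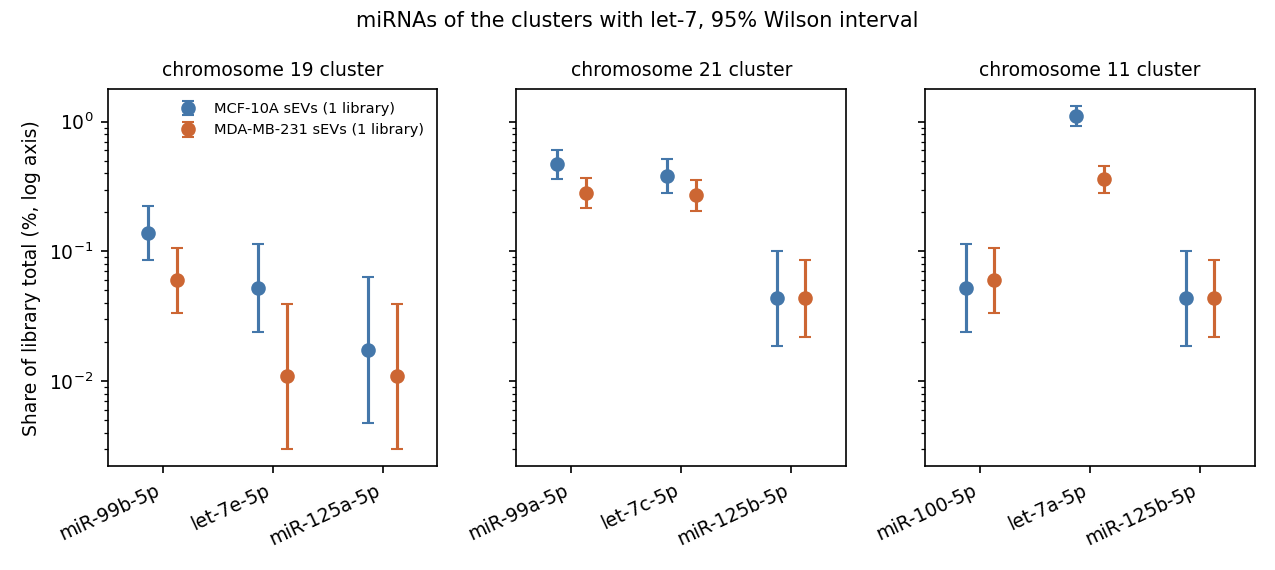
Share of the library total (%, log axis) of the miRNAs of the clusters on chromosomes 19, 21 and 11, in genomic groups of a miR-99 or miR-100, a let-7 and a miR-125 miRNA, with 95% Wilson intervals and 1 library per cell line. miR-99a-5p and let-7c-5p lie side by side, whereas let-7a-5p, which has 3 genes, lies far above miR-100-5p (128 and 6 counts for MCF-10A, 66 and 11 for MDA-MB-231 sEVs), and miR-125b-5p appears in 2 panels because it has 2 genes.

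Other miRNAs of the HOX clusters were rarer than miR-10a-5p and miR-10b-5p. Of 6 looked up by name, 4 were in the table: miR-196a-5p had 3 and 2 counts, miR-196a-3p 1 and 1, miR-196b-5p 4 and 3, and miR-615-3p 1 and 3. Their sum was 9 counts in each library against 98 and 123 for the miR-10 family, and none reached 10 counts. miR-10 was therefore the main HOX-encoded miRNA of this list in both sEV libraries.

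The members that reached 10 counts were set against all miRNAs that did. With a pseudocount of 1 CPM, 1 of the 5 members with at least 10 counts in 1 library was at least 2-fold lower in MDA-MB-231 sEVs, namely miR-99b-5p, against 41.3% of the 109 miRNAs. None of the 5 was at least 2-fold higher, against 15.6%. miR-100-5p reached the minimum only through MDA-MB-231 sEVs, and miR-125a-5p and miR-125b-5p did not reach it. Under each of the 3 other scalings 24 of the 109 were higher and 28 lower (17 and 45 on library totals), and no member was in either group. Of the 5 members, 4 lay between the quartiles of the log2 ratio of the 109 miRNAs, −1.89 and 0.11. By definition the quartiles, at 25% and 75%, enclose the middle part of all miRNAs, and 5 members are too few to set against that share. The point of miR-100-5p, at 0.20, lay above, but the interval of its ratio, 0.389 to 3.78, reached to both sides of the upper quartile.

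**Figure D5:**
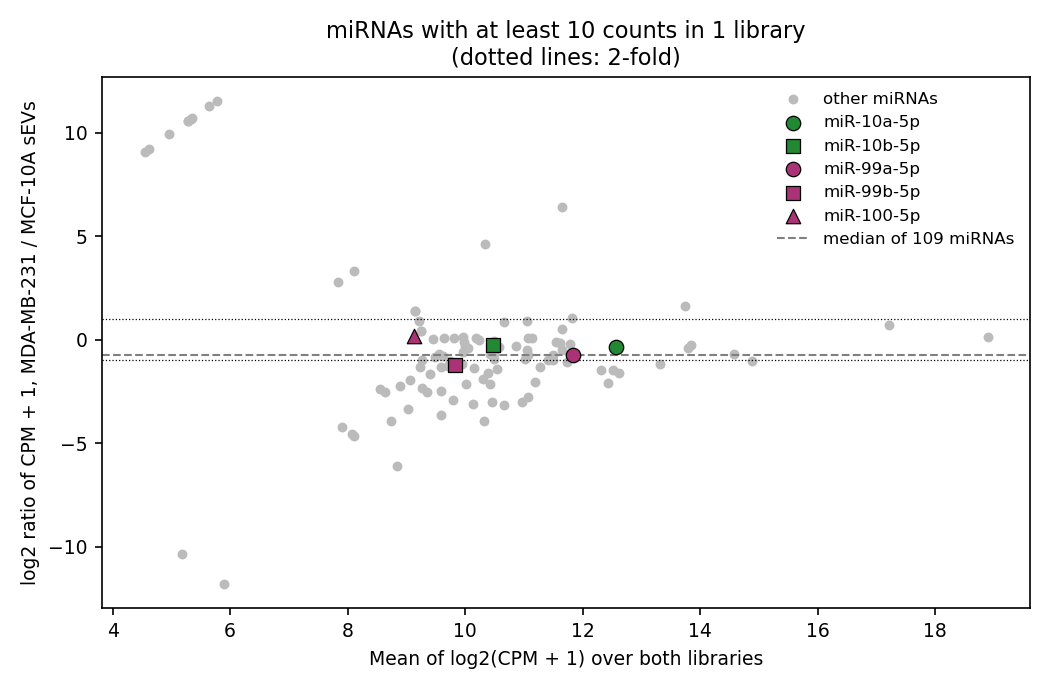
Log2 ratio of CPM + 1 (MDA-MB-231 over MCF-10A sEVs, library totals) against the mean log2(CPM + 1) of the 109 miRNAs that reached 10 counts in either library, 1 library per cell line. The 5 members that reached the minimum (coloured) lie between −1.21 and 0.20, on both sides of the median of −0.72, and under the other scalings every point moves up by 0.67 to 0.73, while the far points at top and bottom left have 0 counts in 1 library.

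The miRNAs with the most similar pair of shares were found by the Euclidean distance of the 2 log2 shares over the 2 libraries, among 89 candidates that reached 10 counts in either library and had counts in both, leaving out the members, let-7a-5p, let-7c-5p, miR-182-5p and miR-451a. Nearest to the miR-10 family were miR-148a-3p (1.52% and 0.679% of the library, distance 0.84) and miR-1246 (0.963% and 0.353%, 0.94). The miR-99/100 family had miR-26a-5p (98 and 56 counts, 0.54) and miR-1246 (0.58) as its neighbours. For the miR-125 family they were miR-15b-5p (8 and 13 counts, 0.42) and, tied with 6 and 13 counts each, miR-144-3p and miR-2681-3p (0.44). The likeness is one of level more than of ratio. On library totals the log2 ratio was −1.16 for miR-148a-3p, −1.45 for miR-1246 and −1.48 for miR-26a-5p. These were lower than the −0.35 of the miR-10 and the −0.71 of the miR-99/100 family. For the miR-125 family, at −0.16, the neighbours were higher, at 0.03 for miR-15b-5p and 0.44 for the tied pair. With 2 libraries such likeness describes nothing further.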

How the data were processed

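Small RNA of sEVs was measured in 2 libraries, 1 per cell line, assigned by the source name in the labels. The authors deposited raw counts per mature miRNA and CPM values, each of which equals the count scaled by its library total. FastQC, cutadapt, Bowtie, edgeR and hg38 are named in the submitters' processing notes, while versions, the miRBase release and the handling of multi-mapping reads are not given in the sources used here.

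Counts were used throughout. Shares carry 95% Wilson intervals, ratios of shares exact conditional binomial intervals and compositions conditional odds ratios with exact intervals. Calls at 2-fold took log2 ratios of CPM + 1 and left out miRNAs under 10 counts in both libraries. No fold is given where both counts were at or under 3. The procedure was tested on simulated data. Python 3.11.15, numpy 2.4.6, scipy 1.17.1, matplotlib 3.10.9, R 4.3.3 and edgeR 4.0.16 (TMM factors only) were used.

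The members and lists were chosen with earlier results of these data known. Named were the 7 members, their opposite arms, let-7 cluster partners, other HOX-cluster miRNAs, seed relatives, miR-182-5p, miR-451a, the 2 nearest miRNAs of each family (with ties), and epithelial and blood markers. Scaling, pseudocount, count minimum, fold threshold, interval type and the inclusion of opposite arms were varied.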

Additional observations from a re-analysis of the deposited data

How the results depend on the processing

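No paired analysis was possible because each cell line had a single library. Scaling was the choice that moved the members. On library totals the ratio was 0.787 for the miR-10 family, 0.610 for the miR-99/100 family and 0.717 for the 7 members. With TMM scaling these became 1.30, 1.01 and 1.18, with median-of-ratios scaling 1.26, 0.974 and 1.14, and with totals without the 10 most abundant miRNAs 1.31, 1.01 and 1.19. Median-of-ratios scaling gave both libraries the same total, so its values are plain ratios of counts. miR-99a-5p reached 1.00 with totals that leave out the 10 most abundant miRNAs. The miR-125 family (0.895, and 1.43 to 1.49) moved within its interval. Opposite arms added, or members under 10 counts left out, changed no ratio beyond its interval, and all 5 compositions kept their values within error. No member of the miR-125 family reached 10 counts, so that alternative gave it no value. Log-normal intervals left miR-99a-5p and miR-99b-5p below 1 and the other 4 members with a fold across it.

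Of all miRNAs, 17 were higher on library totals, 242 with no count minimum and 5 with at least 50 counts. The 45 lower became 28 under each of the 3 other scalings, 288 with no minimum, 12 with at least 50 counts and 26 at 4-fold. With no minimum miR-99b-5p was the only 1 of the 7 members that was lower, against 42.1% of 684 miRNAs. At 1.5-fold it and miR-99a-5p were lower, 2 of 5 members, against 54.1% of the 109 miRNAs. No member was lower at 4-fold, against 23.9% of the 109. None was with at least 50 counts, against 40% of 30 miRNAs, and only 2 members reached that minimum. A single count is 86.7 and 54.4 CPM, which limits every value of the miR-125 family.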
